A study of Mus musculus with 6 samples.

Results

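The 9 genes described here, *P2ry12*, *P2ry13*, *Tmem119*, *Cx3cr1*, *Csf1r*, *Siglech*, *Gpr34*, *Selplg* and *Trem2*, encode receptors and surface proteins known as markers of resting microglia, and were taken by name from the 52636 genes of the count table. They were followed through single-cell RNA sequencing of 6 mouse retinas, 3 from *Dram2 wt/wt* and 3 from *Dram2 ko/ko* mice. All animals were male C57BL/6J mice aged 12 months, and the *ko* allele is a constitutive CRISPR/Cas9 deletion of an exon of *Dram2*. The study calls the function of the encoded protein unclear, with a proposed role in autophagy. Retinas were digested with papain and captured with the 10x Genomics 3′ kit, which counts each captured transcript once through its unique molecular identifier (UMI). In both genotypes replicates 1 and 2 carried the label batch 2 and replicate 3 the label batch 1, so 2 retinas per genotype came from one batch and 1 from the other. Below, values of the 3 retinas of a genotype are given in the order of replicates 1, 2 and 3. The labels do not state that each retina came from another animal, and p-values measure the spread between these 6 samples.

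Microglia are the resident macrophages of the retina and brain. They survey the tissue with fine processes and depend for survival on the growth factor receptor that *Csf1r* encodes. In their resting state they express a set of surface genes, among them the purinergic receptor genes *P2ry12* and *P2ry13*, the fractalkine receptor gene *Cx3cr1* and *Tmem119*. These genes are known to decline when microglia become activated. *Trem2* differs from the rest in that its receptor, which binds lipids and signals through the adaptor *Tyrobp*, is known for its part in the activated state.

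The retinas yielded 7014 to 9242 cells and 3463728 to 6563762 UMIs each, 46375 cells in all. Of the UMIs, 0.405% to 0.720% were mitochondrial in batch 2, while in batch 1 the wt/wt retina had 3.22% and the ko/ko retina 2.75%. *Dram2* itself was counted with 109, 140 and 317 UMIs in wt/wt and 95, 149 and 351 in ko/ko retinas. The kit reads the 3′ end of transcripts, and where these reads lie within *Dram2* is not given, so they do not check the genotype labels. The deposited cell names carry no barcode sequence, so barcodes shared between libraries could not be counted.

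In the genome build GRCm38 (annotation GENCODE M21), pairs of these genes lie close together. *P2ry13* (chr3:59207892-59210882) and *P2ry12* (chr3:59216272-59262871), both on the minus strand, are 5389 bp apart and both lie inside the span of *Med12l*, which runs on the opposite strand. *Tmem119* (chr5:113793729-113800516) and *Selplg* (chr5:113818536-113832644), also on the minus strand, are 18019 bp apart with 1 gene between them. *Cx3cr1* is at chr9:119901616-120069879 on the minus strand, *Siglech* at chr7:55768178-55778925 on the plus strand, *Trem2* at chr17:48346401-48354147 on the plus strand and *Gpr34* at chrX:13632089-13640858 on the plus strand, inside the span of *Cask* on the opposite strand. Exons of *P2ry12* share 9 bp with *Med12l* and those of *Cx3cr1* 78 bp with *Gm33858*, both on the opposite strand, and these partners had 4 and 5 UMIs in all mesenchymal cells.

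The 250 bases before the start of transcription are shown for the adjacent pair *P2ry12* and *P2ry13* and for *Trem2* as the stretch next to the start of genes that were found in the same cells. PU.1, the factor encoded by *Spi1* that macrophages and microglia need, is known to bind a purine-rich box with the core GAGGAA. The capitals mark that core, on the gene's strand in *P2ry13* and on the opposite strand in *Trem2*. Sequences are from RefSeq (GRCm38.p6), read 5′ to 3′ on the gene's strand.
P2ry12, chr3:59262986-59263235, minus strand: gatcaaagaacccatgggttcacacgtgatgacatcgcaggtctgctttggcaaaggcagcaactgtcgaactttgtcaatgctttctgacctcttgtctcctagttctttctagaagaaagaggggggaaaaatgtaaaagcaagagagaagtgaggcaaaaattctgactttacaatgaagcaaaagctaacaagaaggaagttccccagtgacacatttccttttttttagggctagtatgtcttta
P2ry13, chr3:59210883-59211132, minus strand: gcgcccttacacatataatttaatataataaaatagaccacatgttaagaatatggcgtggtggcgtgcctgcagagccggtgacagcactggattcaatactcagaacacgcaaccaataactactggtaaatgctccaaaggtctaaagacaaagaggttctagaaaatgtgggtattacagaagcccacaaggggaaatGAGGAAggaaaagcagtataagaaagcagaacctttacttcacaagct
Trem2, chr17:48346151-48346400, plus strand: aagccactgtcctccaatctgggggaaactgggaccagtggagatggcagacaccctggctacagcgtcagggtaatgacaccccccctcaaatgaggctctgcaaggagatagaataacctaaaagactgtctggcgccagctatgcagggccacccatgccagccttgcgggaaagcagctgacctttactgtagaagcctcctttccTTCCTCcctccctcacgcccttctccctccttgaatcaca
The RefSeq promoter table held 5 of the 9 genes (*P2ry12*, *P2ry13*, *Cx3cr1*, *Siglech* and *Trem2*). The core, sought on both strands, was in 2 of these 5, with its first base 48 bases before the start in *P2ry13* and 40 bases before it in *Trem2*. It was in 7639 of 32851 promoter windows of the same length (23.3%), and a match of letters is a description and not a binding site.

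The 9 genes marked 1 small group of cells. Of their 3042 UMIs in all cells, 2707 (89.0%) were in the 246 cells that the study's annotation names mesenchymal, 0.531% of all cells. The level of the 9 genes together, as UMIs scaled to a total of 1000000 (CPM), was 5051 in mesenchymal cells, 119 in retinal pigment epithelium (RPE) cells, 12.2 in photoreceptors, 10.95 in glia and 9.38 in interneurons. As the study defined its cell types by clustering these counts, the levels are a description and were not tested against each other.

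The mesenchymal type held cells of several kinds. Of 7 fibroblast genes, *Col1a1*, *Col3a1*, *Lum* and *Pdgfra* had no UMI in it, while the list as a whole summed to 710 to 2022 CPM per retina. Its cells were split by marker lists that hold none of the 9 genes, and a cell was called microglia-like where its UMIs of 12 microglia genes (*C1qa*, *C1qb*, *Ctss* and others) outnumbered those of lists of endothelial, pericyte and fibroblast genes combined. This gave 96 microglia-like cells, and 15 of the 246 cells lay within 3 UMIs of the dividing line. The 96 microglia-like cells held 2705 of the 2707 UMIs of the 9 genes, and 148 of the 150 other mesenchymal cells, most of them endothelial-like or pericyte-like, held none.

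Within the microglia-like cells the 9 genes were found together. Of the 96 cells, 59 had UMIs of at least 7 of the 9 genes and 30 had all 9, while 29 cells had 1 to 6 and 8 had none. Cells with fewer of the genes were shallower: the median depth was 2375 UMIs in cells with at least 7 genes, 803 in those with 1 to 6 and 841 in those with none. The 8 cells without any of the 9 genes had 46 UMIs of the microglia list, a median of 3.5 per cell. They had 0 UMIs of a border macrophage list (*Mrc1*, *Cd163*, *Pf4* and others) and 2 of a monocyte list. A list of rod genes stood at 9083 CPM in them, at 17913 CPM in cells with 1 to 6 genes and at 7076 CPM in cells with at least 7. Of the border macrophage list, 40 UMIs were in 4 of the 29 cells with 1 to 6 genes and 17 in 2 of the 59 cells with at least 7. *Lyve1* had 0 UMIs. The part of depth and of border macrophages in these numbers was not tested.

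**Figure D1:**
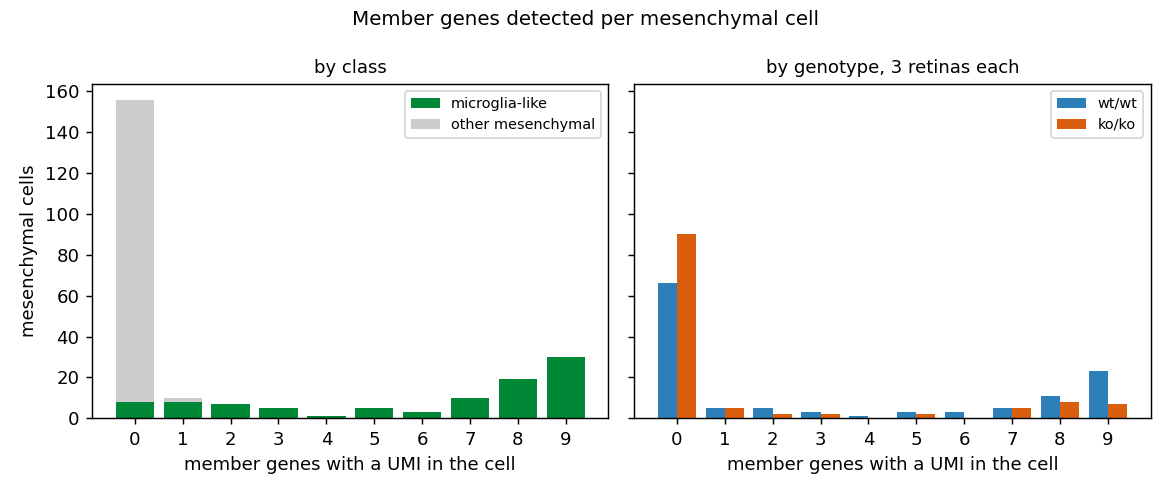
Number of mesenchymal cells (y axis) by how many of the 9 genes had a UMI in the cell (x axis), split by class at left and by genotype, 3 retinas each, at right. Of 246 cells, 148 of the 150 that were not microglia-like had none of the genes, and 59 of the 96 microglia-like cells had at least 7.

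Across the 246 cells, the level of each gene (log of 1 plus UMIs per 10000) followed that of the other 8 summed, with Pearson's r from 0.655 for *P2ry13* to 0.922 for *Csf1r*. Among the 96 microglia-like cells alone r ran from 0.438 to 0.757, again lowest for *P2ry13* and highest for *Csf1r*. The genes most like the 9 across the 246 cells, among 8362 genes ranked, included the complement genes *C1qa* (r = 0.953), *C1qb* (r = 0.953) and *C1qc* (r = 0.946), the lysosomal protease genes *Ctss* (r = 0.952) and *Lgmn* (r = 0.914) and the adaptor genes *Fcer1g* (r = 0.901) and *Tyrobp* (r = 0.895). Of those named, *Lgmn* alone was not in the microglia list used to split the cells. The points share libraries and differ in depth, and these correlations carry no test.

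Outside the mesenchymal type, 331 of 46129 cells had a UMI of any of the 9 genes, and 330 of these had it of 1 gene only. In photoreceptors, which should lack these genes, the shares of the 9 genes in their summed UMIs differed least from those in mesenchymal cells for *Tmem119* (11.7% against 11.1%), *P2ry13* (3.50% against 2.84%), *Csf1r* (17.5% against 18.2%) and *Siglech* (6.23% against 5.39%). The photoreceptor share was higher for *Trem2* (21.4% against 15.6%) and *Selplg* (21.4% against 18.8%), and lower for *Gpr34* (4.28% against 7.91%), *P2ry12* (7.0% against 10.5%) and *Cx3cr1* (7.0% against 9.61%). A photoreceptor had a median of 428 UMIs and a mesenchymal cell of 1905. Thinned to 300 UMIs a cell, 0.0303% of photoreceptors and 11.4% of mesenchymal cells had a *P2ry12* UMI. The source of the UMIs in photoreceptors was not tested.

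*Csf1r* (chr18:61100598-61132149, plus strand) stood out in RPE cells. It had 16 UMIs in 14 of 116 RPE cells (12.1%, exact Clopper-Pearson 95% interval 6.76% to 19.4%), against 44 of 42359 photoreceptors (0.104%, interval 0.0755% to 0.139%). Thinned to 300 UMIs, the shares were 4.12% and 0.0652%. The UMIs came from every retina, with 1, 6 and 3 in wt/wt and 2, 3 and 1 in ko/ko, at a level of 37.4, 226 and 83.4 CPM against 89.5, 133 and 58.6 CPM. The genotypes overlapped, and at 10 to 25 RPE cells per retina a difference could not be seen.

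Few UMIs of other microglia genes were found in RPE cells. The other 8 genes together had 2 UMIs in the 116 RPE cells, 1 of *Cx3cr1* and 1 of *Trem2*. The 14 cells with a *Csf1r* UMI had 1 UMI of the microglia list between them. *Csf1r* shares 873 of its 5774 exonic bases with *Hmgxb3*, which runs on the opposite strand, and the use of strand in the counting is not given in the sources used here. *Hmgxb3* had 1 UMI in RPE cells, in a cell with none of *Csf1r*. Intervals cover counting error only, and doublets were not removed.

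The purpose of the mouse experiment was to see what loss of *Dram2* does to the cells of the ageing retina. In UMIs summed over the mesenchymal cells of each retina, all 9 genes had a lower mean in ko/ko than in wt/wt retinas, at 32.5% to 48.2% of the wt/wt mean. No gene of the 1717 tested (0%) passed an adjusted p under 0.05 (edgeR quasi-likelihood test with Benjamini-Hochberg adjustment), and so none of the 9. At an unadjusted p under 0.05, 150 genes passed, 82 of them lower in ko/ko (4.78%), by limma-voom 134 and by DESeq2 87, and of the 9 genes all 8 that were tested were among those lower. *P2ry13*, with 77 UMIs, was left out by the filter on low counts. The median log2 fold change was -1.19 over these 8 genes and 0.03 over all genes. Since 8 of the 9, all but *P2ry13*, also stand on the study's own list of genes that differ in these cells, their direction is not independent evidence. The study called the genes of that list by limma-voom on sums of cells, at an adjusted p under 0.05. Here limma-voom without a batch term called none of the 1717 genes, and the reason for the difference was not tested.

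Among the purinergic and related receptors, *P2ry12*, the ADP receptor that steers microglial processes towards injury, had 761, 683 and 948 CPM in wt/wt and 192, 342 and 244 CPM in ko/ko mesenchymal cells. Every ko/ko retina was well below every wt/wt retina, and the log2 fold change of -1.64 ± 0.33 (SE) was the largest of the 8 (edgeR adjusted p = 0.325). *P2ry13*, a second ADP receptor, had 196, 299 and 110 CPM against 76.8, 114 and 51.4 CPM, on 10 to 28 UMIs per wt/wt and 4 to 13 per ko/ko retina. Here the ko/ko replicate 2 lay just above the wt/wt replicate 3, so the genotypes overlapped. *Gpr34*, a receptor for lysophosphatidylserine, had 540, 523 and 585 CPM against 166, 351 and 193 CPM, with no overlap (log2 fold change -1.22 ± 0.34, edgeR adjusted p = 0.471).

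*Cx3cr1*, the receptor through which microglia read fractalkine from neurons, was the one tested gene of the 8 whose genotypes overlapped. It had 822, 779 and 430 CPM in wt/wt and 179, 491 and 141 CPM in ko/ko retinas, and the ko/ko replicate 2 stood above the wt/wt replicate 3. Its log2 fold change was -1.32 ± 0.47 (edgeR adjusted p = 0.484), and ran from -2.20 to -0.997 with a retina left out. The unadjusted edgeR p was 0.0525 without wt/wt replicate 1, 0.0632 without wt/wt replicate 2 and 0.0677 without ko/ko replicate 1. *Csf1r*, whose ligands CSF1 and IL-34 keep microglia alive, had 1239, 1345 and 1136 CPM against 512, 885.5 and 283 CPM. Every ko/ko retina lay below every wt/wt retina, with ko/ko replicate 2 the nearest (log2 fold change -1.17 ± 0.38, edgeR adjusted p = 0.471).

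*Trem2* and *Siglech*, whose products signal through the adaptor DAP12 that *Tyrobp* encodes, followed the same order. *Siglech*, a sialic acid-binding lectin, had 466, 363 and 375 CPM against 128, 193 and 103 CPM (log2 fold change -1.50 ± 0.34, edgeR adjusted p = 0.337). *Trem2* had 1166, 1078 and 971 CPM against 461, 701 and 295 CPM (log2 fold change -1.16 ± 0.35, edgeR adjusted p = 0.471). Neither gene overlapped between the genotypes.

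Of the remaining surface proteins, *Tmem119*, a membrane protein used to tell microglia from blood-derived macrophages, had 785, 811 and 629 CPM against 333, 508.5 and 231 CPM (log2 fold change -1.07 ± 0.35, edgeR adjusted p = 0.471). *Selplg*, the ligand of P-selectin, had 1350, 1195 and 1268 CPM against 614, 894 and 295 CPM (log2 fold change -1.10 ± 0.37, edgeR adjusted p = 0.484). Both were without overlap. In all, 7 of the 8 tested genes had every ko/ko retina below every wt/wt retina, where 6.52% of all 1717 genes did. In all 9 genes replicate 2 was the highest ko/ko retina.

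**Figure D2:**
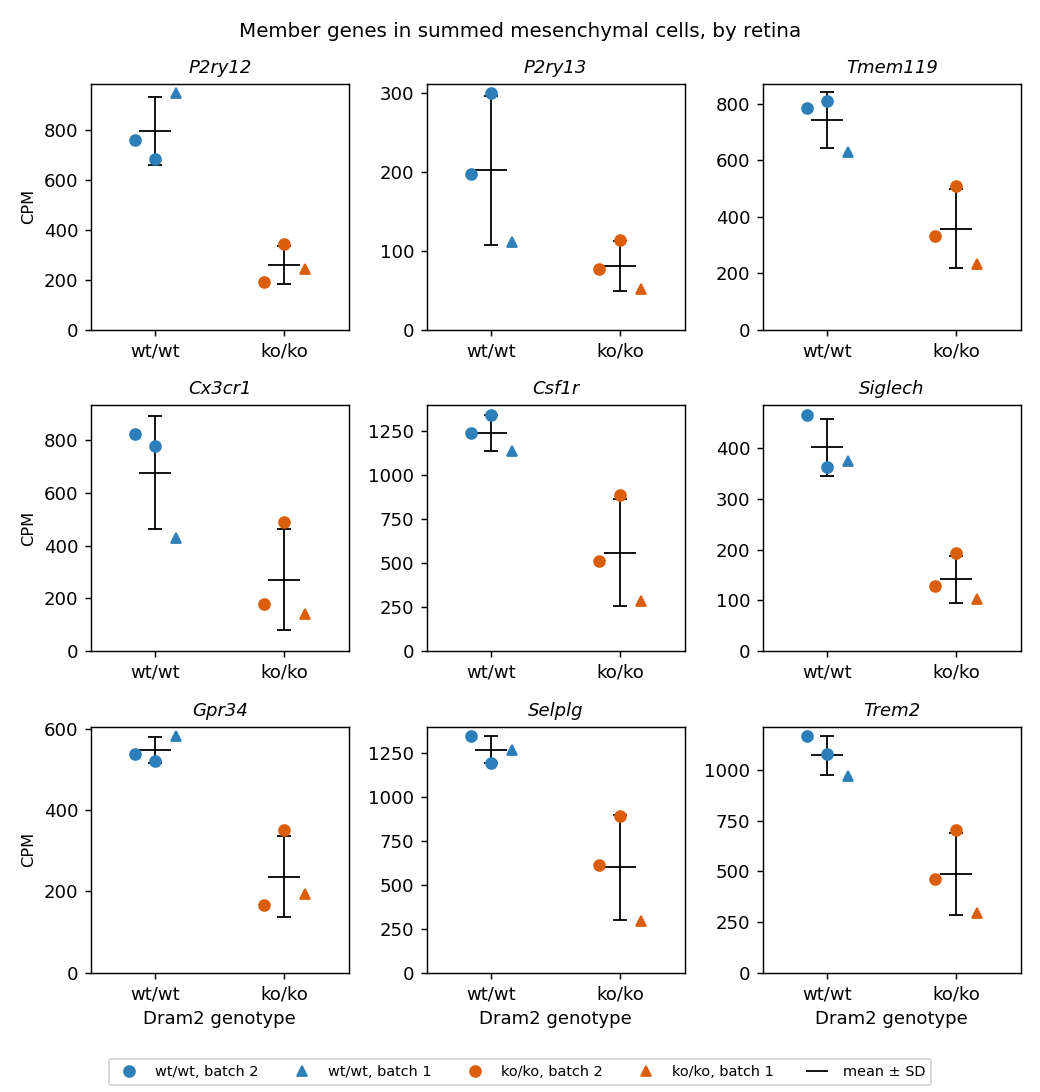
CPM of each of the 9 genes (y axes, linear from 0) in the summed mesenchymal cells of each retina, by genotype. Points are retinas, with circles for batch 2 and triangles for batch 1, and bars give mean ± SD of 3 retinas, and the ko/ko points lie below the wt/wt points in 7 of the 8 tested genes, with *Cx3cr1* overlapping.

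The batch mattered for the count of calls. With the batch as a covariate, 4 of the 8 genes passed the adjusted p under 0.05 in edgeR, *P2ry12* (adjusted p = 0.0272), *Siglech* (adjusted p = 0.0304), *Trem2* (adjusted p = 0.0428) and *Csf1r* (adjusted p = 0.0465), where 20 of 1717 genes (1.16%) passed as lower in ko/ko. With limma-voom and the batch, all 8 passed, with adjusted p from 0.00444 to 0.0272, where 30 of 1717 genes (1.75%) passed as lower. These fits rest on 1 retina per genotype in batch 1.

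The lower sums went with fewer microglia-like cells. In wt/wt retinas 22 of 39, 25 of 49 and 15 of 37 mesenchymal cells were microglia-like (56.4%, 51.0% and 40.5%), and in ko/ko retinas 8 of 40, 20 of 50 and 6 of 31 (20%, 40% and 19.4%). The genotypes did not overlap, but ko/ko replicate 2 lay close to wt/wt replicate 3. The means were 49.3% ± 8.07 and 26.5% ± 11.7 (SD, n = 3 each), and the difference of -22.9 percentage points had p = 0.1 in a two-sided exact permutation test, the smallest p that 3 against 3 retinas allow. It was -23.7 points within batch 2 and -21.2 points within batch 1. The exact 95% intervals of single retinas were wide, from 39.6% to 72.2% in wt/wt replicate 1 and from 7.45% to 37.5% in ko/ko replicate 3.

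As the microglia-like share was lower in ko/ko, the endothelial-like share of mesenchymal cells was higher, 55.9% ± 10.4 against 36.6% ± 9.54 (SD, n = 3 each, exact permutation p = 0.1). The pericyte-like share was 15.1% against 14.1% (exact permutation p = 0.8, n = 3 each). Shares within a type sum to a whole, so the microglia-like share was also taken of all typed cells of a retina. It was 0.292%, 0.3405% and 0.217% in wt/wt and 0.115%, 0.252% and 0.0658% in ko/ko retinas, where ko/ko replicate 2 stood above wt/wt replicate 3 (exact permutation p = 0.2, n = 3 each). The shares are of cells recovered after digestion and capture.

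Because cells were counted one by one, the number of cells with a gene and the level within them could be read separately. They are linked, since a cell is positive from 1 UMI and a lower level or depth can also lower the number. The median depth of microglia-like cells was 2133.5, 1723 and 2320 UMIs in wt/wt and 2248.5, 1578.5 and 1037.5 UMIs in ko/ko retinas. The share of mesenchymal cells with a UMI was lower in ko/ko for each of the 9 genes. *P2ry12* was found in 14 of 39, 17 of 49 and 11 of 37 wt/wt cells and in 6 of 40, 14 of 50 and 2 of 31 ko/ko cells, a mean of 33.4% ± 3.27 against 16.5% ± 10.9 (SD, n = 3 each, exact permutation p = 0.1, adjusted over the 9 genes p = 0.15). *Trem2* was found in 40.7% ± 5.51 against 18.6% ± 8.18 of cells and *Csf1r* in 40.5% ± 7.16 against 19.3% ± 9.33 (SD, n = 3 each). *P2ry13* had the lowest shares, 25.3% ± 3.49 against 8.24% ± 5.43 (SD, n = 3 each). The exact p was 0.1 for 6 genes and 0.2 for *Tmem119*, *Cx3cr1* and *Selplg*, in which ko/ko replicate 2 overlapped wt/wt replicate 3. These are 9 readings of largely the same cells and not 9 independent results.

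Within the cells that had the gene, the levels of the genotypes overlapped. *P2ry12* stood at 17.5, 18.9 and 34.0 UMIs per 10000 in wt/wt and at 11.2, 11.5 and 32.8 in ko/ko cells, and in both genotypes the batch 1 retina was the highest, on 2 positive cells in ko/ko. *Selplg* stood at 33.7 ± 8.49 against 33.5 ± 4.03 and *Trem2* at 27.8 ± 4.42 against 26.0 ± 4.05 UMIs per 10000 (SD, n = 3 each). *Tmem119* was at 20.5 ± 3.58 in wt/wt and 26.1 ± 5.63 in ko/ko cells, and *P2ry13* and *Gpr34* likewise had the higher mean in ko/ko (10.05 against 6.92 and 16.45 against 16.0). In ko/ko replicate 3 *P2ry13* stood at 14.8 on 1 positive cell and *Gpr34* at 25.9 on 2. Within batch 2 the ko/ko mean was lower for both, by -0.361 and -1.51, and higher for *Tmem119*, by 4.95. Exact permutation p was 0.3 to 1 over the 9 genes (adjusted p from 0.643, n = 3 each). With 1 to 21 positive cells per gene and retina, this does not show that the levels were alike.

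**Figure D3:**
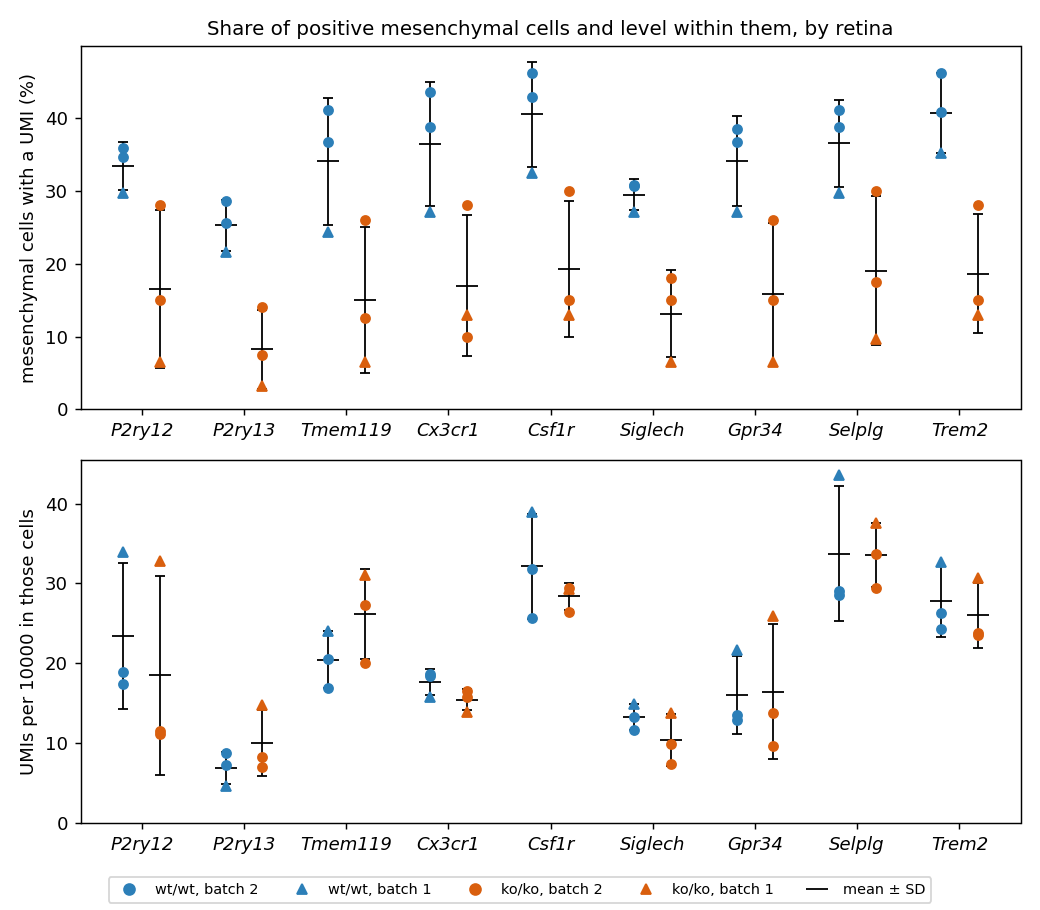
Top, share of mesenchymal cells with a UMI of each gene (%), and bottom, level in those cells (UMIs per 10000), per retina, with circles for batch 2, triangles for batch 1 and bars for mean ± SD of 3 retinas. The top panel has the ko/ko means below the wt/wt means for all 9 genes, and in the bottom panel the genotypes overlap.

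The same comparison in UMIs summed over the microglia-like cells of each retina tells how the 9 genes stood within that class. All 9 genes were tested among 458, and none passed: no gene had an adjusted p under 0.05 (edgeR with Benjamini-Hochberg adjustment), and at an unadjusted p under 0.05, 9 genes passed, 6 of them lower in ko/ko (1.31%), none being one of the 9. At that p, 13 genes passed by limma-voom and 6 by DESeq2. The log2 fold changes of the 9 ran from -0.55 to -0.02 with a median of -0.19, against 0.02 over all genes, and all 9 were below 0. In none of the 9 did every ko/ko retina lie below every wt/wt retina, where 5.02% of the genes did. With the batch as a term no gene was called in edgeR or limma-voom. At an unadjusted p under 0.05 none of the 9 passed in edgeR and 1, *P2ry12* (log2 fold change -0.50 ± 0.21, limma adjusted p = 0.705), passed in limma-voom, where 7 of 458 genes (1.53%) passed as lower. Each ko/ko sum rested on 6 to 20 cells. In ko/ko replicate 3, the batch 1 retina, 2 of the 6 cells held 72 and 63 UMIs of the 9 genes and the other 4 held 1 to 3 each, and *P2ry12*, *Siglech*, *Gpr34* and *Tmem119* each had UMIs in 2 cells. Whether a gene's fold change differed between mesenchymal and microglia-like sums was not tested.

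*P2ry12* had the lowest fold change here too, with 1428, 1525 and 2961 CPM in wt/wt and 919, 996.5 and 2109 CPM in ko/ko microglia-like cells (log2 fold change -0.55 ± 0.43, edgeR adjusted p = 0.996). It was -1.03 when ko/ko replicate 3 was left out and -0.25 when wt/wt replicate 3 was. Within each batch the ko/ko retinas were below the wt/wt retinas for *P2ry12*, *Siglech* and *Cx3cr1* only. How many of all tested genes lay lower within each batch was not counted, so this order does not set these genes apart. For 5 genes, *P2ry12*, *Siglech*, *Gpr34*, *Tmem119* and *Trem2*, the batch 1 retina was the highest of each genotype. *Siglech* had 875, 810 and 1171 CPM against 613, 562 and 888 CPM (log2 fold change -0.47 ± 0.33). *Gpr34* had 1013, 1167 and 1825 CPM against 797, 1022 and 1665 CPM (log2 fold change -0.18 ± 0.38).

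*Cx3cr1* had its lowest wt/wt value in batch 1, with 1543, 1739 and 1343 CPM in wt/wt and 858, 1431 and 1221 CPM in ko/ko microglia-like cells (log2 fold change -0.33 ± 0.33). *Tmem119* had 1474, 1811 and 1963 CPM against 1593, 1482 and 1998 CPM, a log2 fold change of -0.02 ± 0.29. *Csf1r* had 2326, 3002 and 3547 CPM against 2451, 2581 and 2443 CPM (log2 fold change -0.19 ± 0.26). The ko/ko retinas of *Csf1r* lay close together while the wt/wt retinas spread widely, and the lowest of all 6 was a wt/wt retina. *Selplg* had 2533, 2668 and 3960 CPM against 2880, 2606 and 2554 CPM, *Trem2* 2187, 2406 and 2996 CPM against 2206, 2044 and 2554 CPM, and *P2ry13* 368, 667 and 344 CPM against 368, 332 and 444 CPM.

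**Figure D4:**
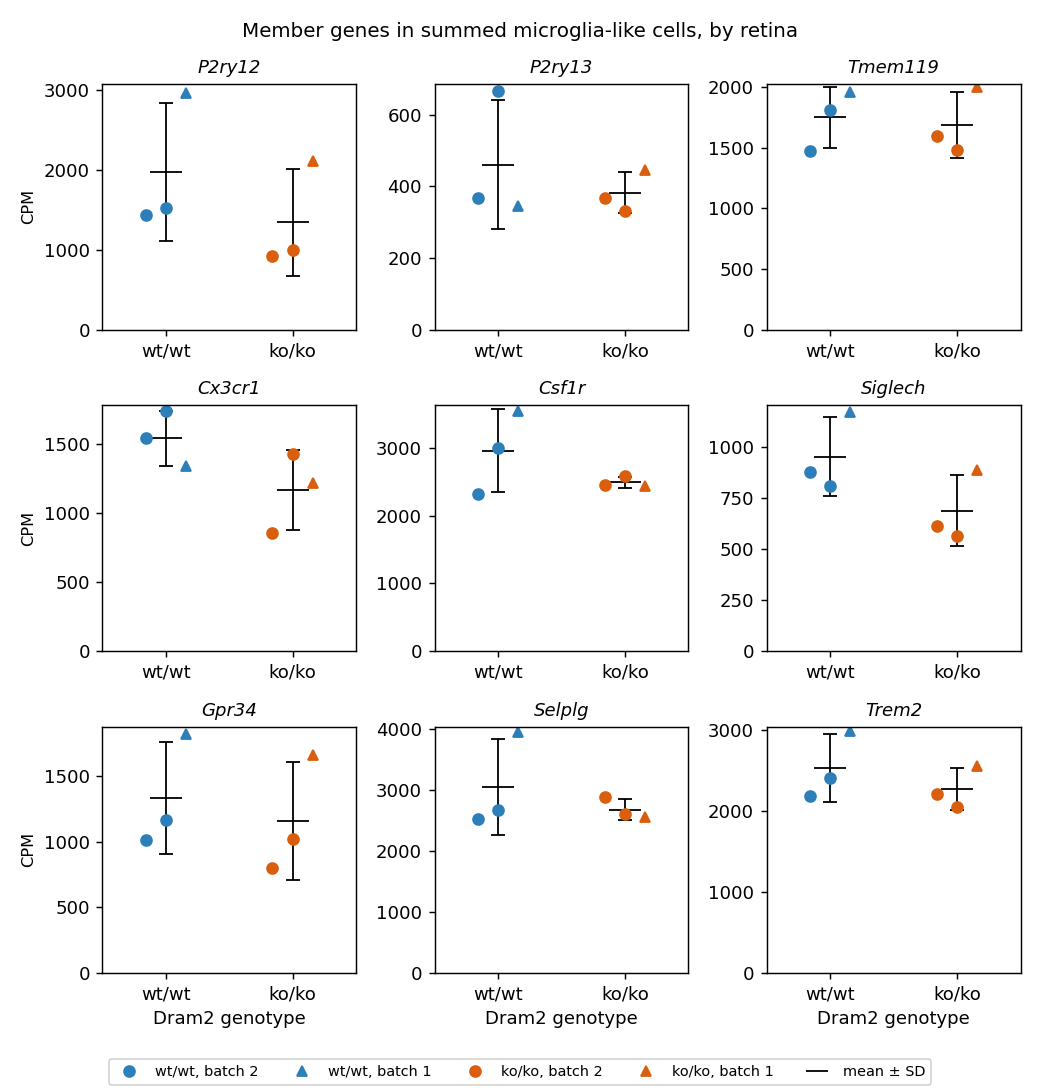
CPM of each of the 9 genes (y axes, linear from 0) in the summed microglia-like cells of each retina, by genotype, with circles for batch 2, triangles for batch 1 and bars for mean ± SD of 3 retinas. The genotypes overlap in all 9 genes, and for *P2ry12*, *Siglech*, *Gpr34*, *Tmem119* and *Trem2* the batch 1 retina is the highest of each genotype.

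RNA of other cells was present in the microglia-like sums. The summed level of 8 rod genes was 5987 to 12981 CPM in wt/wt and 7282 to 27645 CPM in ko/ko microglia-like cells, ranges that overlapped, and was highest in both genotypes in batch 1. The 7 rod genes tested there all had a fold change above 0, and none had an unadjusted p under 0.05. The border macrophage list stood at 0 to 161 CPM in wt/wt and 0 to 2022 CPM in ko/ko, the latter in replicate 1, with *Lyve1* at 0. Of the endothelial list 6 of 10 genes, *Pecam1* and *Cdh5* among them, were at 0 in microglia-like cells, and its sum was at most 69.1 CPM in wt/wt and 123 CPM in ko/ko. The endothelial list took part in the split of the cells, so its low values there follow in part from that rule. In mesenchymal sums, haemoglobin and other blood genes took 7268 CPM in ko/ko replicate 2 and at most 51.2 CPM elsewhere. The part of these RNAs in the fold changes was not tested.

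In UMIs summed over all cells of a retina, all 9 genes again had the lower mean in ko/ko, at 35.4% to 55.2% of the wt/wt mean, and none of 15330 genes passed an adjusted p under 0.05 (edgeR with Benjamini-Hochberg adjustment), while 101 passed an unadjusted p under 0.05 in edgeR and 94 in limma-voom. *P2ry12* had 17.1, 17.4 and 16.6 CPM in wt/wt and 4.91, 9.82 and 3.35 CPM in ko/ko retinas (log2 fold change -1.46 ± 0.39, edgeR adjusted p = 1.00). The 3 wt/wt retinas lay close together and all ko/ko retinas were lower. Every ko/ko retina lay below every wt/wt retina in 3 of the 9 genes, where 545 of 15330 genes (3.56%) did, and the rest of the 9 overlapped. *P2ry12* and *Gpr34* (log2 fold change -1.20 ± 0.49) were the members of the 9 at an unadjusted p under 0.05, where 0.385% of all genes passed as lower in ko/ko. At that p 4 of the 9 passed in limma-voom, where 0.404% of all genes did as lower, and all 9 in edgeR with a batch term, where 1.72% did. Leaving out a retina gave 1 to 8 of the 9, the 8 without ko/ko replicate 2, where 325 of 15992 genes passed as lower. It moved the log2 fold change of *Selplg* between -1.58 and -0.34 and that of *Csf1r* between -1.63 and -0.45. In these sums fewer microglia and less RNA per microglial cell cannot be told apart.

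**Figure D5:**
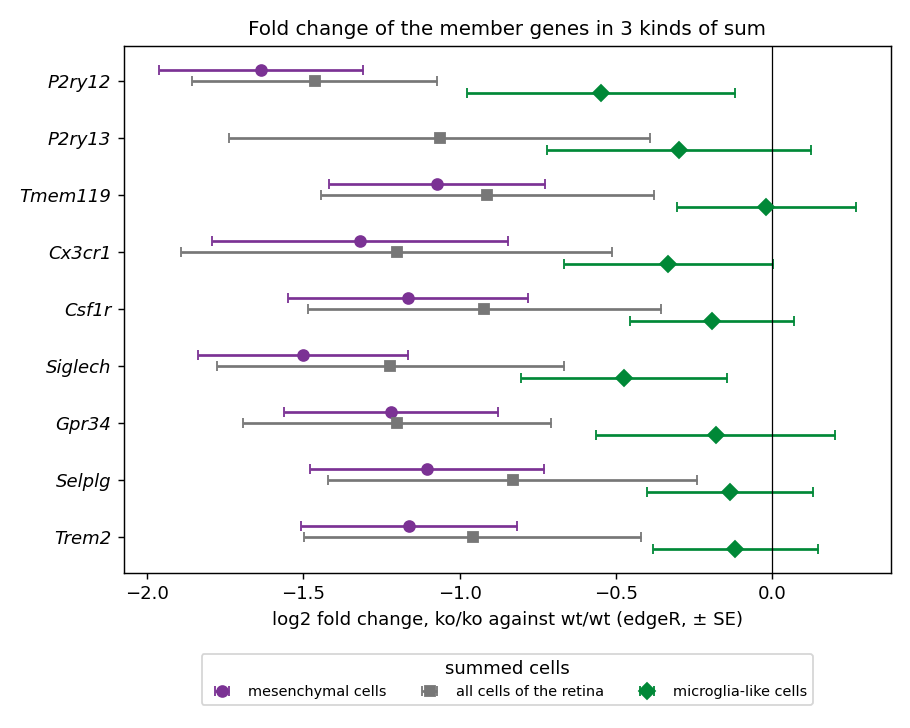
log2 fold change of each gene, ko/ko against wt/wt (x axis, edgeR, bars are SE), in sums over mesenchymal cells, all cells and microglia-like cells of 3 retinas per genotype. Values run from -1.64 to -1.07 in mesenchymal cells, where *P2ry13* was not tested, and from -0.55 to -0.02 in microglia-like cells.

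Genes that work with the 9 were read from lists of known partners. Of the ligands, *Cx3cl1*, which encodes fractalkine, had 26.5 to 57.9 CPM in interneurons and 21.3 to 64 CPM in mesenchymal cells over the 6 retinas. *Il34* and *Csf1*, the ligands of the *Csf1r* product, were sparse. *Il34* had 23 UMIs in mesenchymal cells and 9 in interneurons, and *Csf1* had 18 in glia, 6 in mesenchymal cells and 5 in interneurons. None of the 6 ligand genes passed the filter of the mesenchymal fit. *Selp* and *Sele*, which encode selectins on activated endothelium, had 0 UMIs in all 5 cell types.

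Of 9 signalling partners 3 were tested in mesenchymal sums. *Tyrobp* had 1632, 1409 and 1059 CPM in wt/wt and 666, 947 and 244 CPM in ko/ko mesenchymal cells (log2 fold change -1.17 ± 0.43, edgeR adjusted p = 0.484), without overlap, and -0.19 ± 0.25 in microglia-like sums. *Ptpn6*, which encodes the phosphatase SHP-1, had 294.5, 171 and 77.2 CPM against 12.8, 167 and 12.8 CPM (log2 fold change -1.30 ± 0.75, edgeR adjusted p = 0.663), and the genotypes overlapped. *Gnai2*, the inhibitory G protein subunit to which purinergic and chemokine receptors couple, is expressed beyond microglia and had 859, 971 and 794 CPM against 1152, 1026 and 745 CPM. Of 8 myeloid transcription factors 5 were tested, all with a fold change below 0, as had 803 of all 1717 genes, and 1, *Spi1*, at an unadjusted p under 0.05, where 82 genes (4.78%) passed as lower. *Spi1* had 196, 224 and 132 CPM against 102, 123 and 51.4 CPM (log2 fold change -0.98 ± 0.40, edgeR adjusted p = 0.499), and 0.01 ± 0.37 on the log2 scale in microglia-like sums. In mesenchymal sums *Mef2c* had a log2 fold change of -0.63 ± 0.31 and *Irf8* of -0.78 ± 0.44.

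The 12 microglia genes used for the split had a median log2 fold change of -1.21 in mesenchymal sums, all 12 lower at an unadjusted p under 0.05, where 4.78% of all genes passed as lower. In microglia-like sums the median was -0.23, with 1 of the 12 lower at that p, where 1.31% of all genes passed as lower. These 12 genes also define the microglia-like class, so their values within it are not independent of the split. The lowest was *Coro1a*, an actin-binding protein of leukocytes (-1.90 ± 0.45 and -0.87 ± 0.35). *Cd53*, a leukocyte tetraspanin, had -1.39 ± 0.40 and *Ctss*, the protease cathepsin S, -1.27 ± 0.46 in mesenchymal sums. Of 12 genes known from activated microglia 5 were tested in mesenchymal sums, 4 with a fold change below 0 and 3 of them, *Ctsd*, *Cd9* and *Ctsb*, at an unadjusted p under 0.05. Over all 1717 genes 803 had a fold change below 0 and 82 (4.78%) passed as lower at that p. *Lyz2*, a lysozyme gene also expressed in monocytes and border macrophages, had 0.52 ± 0.52 there and 1.58 ± 0.42 in microglia-like sums (edgeR adjusted p = 0.996). The activated list as a whole stood at 12913 to 15701 CPM in wt/wt and 14794 to 15210 CPM in ko/ko microglia-like cells. In mesenchymal cells *Clec7a* had 30 UMIs, *Lpl* 5, *Cst7* 4, *Spp1* 1 and *Gpnmb* 0.

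The endothelial list had a median log2 fold change of 0.63 in mesenchymal sums, with 9 of 10 genes above 0 and *Kdr* at -0.03 ± 0.38. Of the 10 genes 2, *Cdh5* (1.00 ± 0.34) and *Esam* (0.86 ± 0.32), were higher at an unadjusted p under 0.05, where 68 of 1717 genes (3.96%) passed as higher, and *Egfl7* (0.65 ± 0.30) and *Flt1* (0.60 ± 0.28) followed. Of 8 tested pericyte genes 2, *Vtn* (0.93 ± 0.36) and *Kcnj8* (1.01 ± 0.43), were higher at that p, and 5 of the 8 had a fold change above 0. The 3 below 0 were the contractile genes *Tagln* (-2.48 ± 1.17), *Acta2* (-2.17 ± 0.99) and *Myl9* (-0.64 ± 0.56), none of them at that p (edgeR adjusted p = 0.574, 0.566 and 0.850). *Ly6c2*, the tested gene of the monocyte list, had 0.87 ± 0.34, with 3 of its 272 mesenchymal UMIs in microglia-like cells. *Mgp* of the fibroblast list had 0.21 ± 0.43 and *Glul* of the Muller glia list 0.52 ± 0.30. Of the rod genes *Gngt1* had 0.40 ± 0.28, *Nrl* 0.47 ± 0.36 and *Pde6b* 0.39 ± 0.31 in mesenchymal sums. Of 7 other purinergic and nucleotide genes 1 was tested, *P2ry14*, the receptor for UDP-glucose. It had 85.9, 53.4 and 22.1 CPM in wt/wt and 166, 149 and 180 CPM in ko/ko mesenchymal cells (log2 fold change 1.57 ± 0.48, edgeR adjusted p = 0.471). *P2ry14* had no overlap, and how many of all genes lay wholly higher in ko/ko was not counted. Unlike the 9, it had 1 of its 58 mesenchymal UMIs in microglia-like cells.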

How the data were processed

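Single cells of 6 mouse retinas, 3 per *Dram2* genotype, were compared. The authors aligned reads to GRCm38 (mm10) with Cell Ranger 3.1.0, per the labels and methods, over exons only, and the deposited values are raw UMI counts per gene and cell, with a second table that gives the sample and cell type. Unused columns of the count table numbered 0. GENCODE M21 named 52489 of 52636 genes.

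UMIs were summed per retina over mesenchymal, microglia-like or all cells and fitted with edgeR (glmQLFit, glmQLFTest, TMM, filterByExpr), genotype as the only term, Benjamini-Hochberg adjustment over all genes tested, threshold 0.05. The study's methods use limma-voom. CPM scale each sum to 1000000 UMIs. Shares and levels per positive cell (at least 1 UMI) were compared by two-sided exact permutation over retinas. Limits for a count of 0 are 3 counts. Microglia-like cells had more UMIs of 12 microglia genes than of 10 endothelial, 10 pericyte and 7 fibroblast genes together. Doublets were not removed. No pair of libraries had sums alike within counting error (chi-square over degrees of freedom of at least 2.20 for each pair). Whether any were further captures of the same tissue was not tested. The genes and lists were chosen with earlier results of these data known. Named beside the 9 genes were, per list, those past the threshold and up to 4 of smallest p, and the 8 genes of highest r, and 3 genes that these rules name are not reported here. *Kdr*, *Myl9* and *Pecam1*, and list genes given only by their UMIs or at 0, were named after their values were seen.

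Also run were DESeq2, limma-voom, RLE factors, fits without the filter, a fold change above 2, the batch as a covariate, a replicate block, stricter cells (500 UMIs or more, 10% mitochondrial UMIs or fewer), 2 other rules for microglia-like cells, thinning to 1000 UMIs, positivity from 2 UMIs, unscaled levels and each retina left out. The tests were tried on simulated counts first. Versions were R 4.3.3, edgeR 4.0.16, limma 3.58.1, DESeq2 1.42.0, matplotlib 3.10.9, pandas 2.3.3, scipy 1.17.1, numpy 2.4.6 and Python 3.11.15.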

Additional observations from a re-analysis of the deposited data

How the results depend on the processing

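In mesenchymal sums the 9 genes kept a log2 fold change below 0 under every alternative in which they were tested. Calls were none of 1717 genes as reported, with limma-voom, DESeq2, RLE factors and a fold change above 2, and none of 1703 with the stricter cells. They were 21 (4 of the 9 genes) with the batch in edgeR, 35 (8 of the 9) with the batch in limma-voom, 28 of 18580 (1 of the 9, *P2ry12*) without a filter on low counts, and 26 (5 of the 9) with a replicate block. The cause of the difference made by the batch was not tested. Same-numbered retinas had deviations correlated at 0.0936, 0.232 and 0.446, so the numbers were not taken to pair the samples. With each retina left out, calls were 0 to 7, the 7 without ko/ko replicate 2 and none of them among the 9, and the log2 fold changes ran from -2.20 to -0.77. In microglia-like sums calls were 7 of 14238 genes without the filter, against none of 458, where the log2 fold changes of the 9 ran from -1.07 to -0.50 and the median of all genes was itself -0.42, and 0 to 1 with a retina left out, the 1 without ko/ko replicate 3. The value for *Tmem119* passed 0 with at least 3 microglia genes per cell (0.011), and with a retina left out it ran from -0.21 to 0.040 and that of *P2ry13* from -0.53 to 0.079. The other 7 stayed below 0 there, with *P2ry12* the lowest at -1.03. *Gpr34* and *Selplg* all but reached 0, at -0.0012 and -0.0015. In whole retina sums the 9 genes ran from -2.27 to -0.34 with a retina left out, and a replicate block gave no call and all 9 at an unadjusted p under 0.05, where 280 of 15330 genes passed as lower. The microglia-like share differed by -29.7 to -19.3 points with a retina left out. The level of *Trem2* per positive cell turned to 0.122 UMIs when unscaled. Levels per positive cell turned with a retina left out for *P2ry12* (-12.1 to 0.329), *Gpr34* (-4.31 to 3.798), *Selplg* (-2.77 to 4.71) and *Trem2* (-4.09 to 0.735). These levels rest on few cells per retina, and the part of depth in them was not tested.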
